A study of Mus musculus with 59 samples.

Results

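Glia carrying the SOD1_G93A transgene were sequenced beside neurons carrying the same transgene or beside wild-type neurons, and the difference between those glial libraries is described here. The comparison holds 12 of the 59 samples of the series: 6 libraries of glial RNA from cultures of mutant glia with mutant neurons and 6 from cultures of mutant glia with wild-type neurons. All 12 were chosen by their labels, which give the genotype of the glia, the genotype of the neurons, the day of culture (3, 7 or 14) and the replicate number (1 or 2). The cultures are named sandwich cultures, a format in which both cell types share a dish and RNA is taken from either one. Every glial culture compared here is mutant, so the only labelled difference within a day is the genotype of the neurons. The labels name the cells only as glia and neurons and do not give the dissection, the promoter of the transgene or whether replicates came from separate animals, so the p-values here cover no more than the spread among these libraries, which may be technical.

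SOD1 encodes a copper and zinc superoxide dismutase, and the G93A substitution is a cause of familial amyotrophic lateral sclerosis (ALS) that produces motor neuron loss when the human gene is carried by mice. Astrocytes take up glutamate and potassium released by neurons, secrete trophic factors, and can become reactive, a state marked by intermediate filaments such as Gfap and by inflammatory genes. Mutant glia are known to harm motor neurons in culture. Whether the genotype of the neurons in turn alters the expression of glia that already carry the mutation is the question this comparison addresses.

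The reads assigned to genes ranged from 3.13 M to 21.2 M per library. The lowest number was in the day 14 replicate 1 library with wild-type neurons. Values were deposited as RPKM (reads per kilobase of transcript, scaled to a total per library), and were divided here by a factor per library (median of ratios) to give rescaled RPKM. The factors were 2.16 and 1.77 in the day 3 replicate 1 libraries with mutant and wild-type neurons, against 0.83 to 0.91 in the other 10, so these day 3 libraries stand apart in scale. The total that their deposited values imply was below the reads on genes, at 3.58 M against 8.01 M with mutant and 4.82 M against 8.90 M with wild-type neurons, whereas it was above them in the other 10. The labels do not say what total the authors used. The labels state that libraries were made by a standard Illumina protocol or by Nextera transposase, and do not say which library used which, so no values within one method could be given.

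The mouse Sod1 entry (mm9, chromosome 16, 90220987 to 90226568) was read first. In libraries with mutant neurons it was at 857, 201, 567, 280, 241 and 311 rescaled RPKM (day 3 replicates 1 and 2, then days 7 and 14). With wild-type neurons it was at 1258, 241, 488, 226, 278 and 343 rescaled RPKM. The groups overlapped, and the within-pair difference was -0.11 on the log2 scale (SE 0.10, adjusted p = 0.993 by limma). Since all the glia carry the transgene, and the files do not say how reads of the human gene were counted, Sod1 does not check the label of the neurons.

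Markers of several cell types were present in these glial libraries. The summed level of 16 astrocyte markers ranged from 1413 to 2467 rescaled RPKM with mutant neurons and from 1221 to 2173 with wild-type neurons. Gfap, the intermediate filament of astrocytes, ranged from 80.7 to 440 and from 59.2 to 446 rescaled RPKM. Among 19 markers of microglia and macrophages, the sum ranged from 2785 to 5973 and from 2833 to 5647 rescaled RPKM. The libraries labelled glia thus hold microglial as well as astrocytic transcripts, and in bulk RNA fewer cells of a type cannot be told apart from less RNA per cell. Among markers of endothelial and mural cells, Tagln was at medians of 959 and 839 rescaled RPKM and Acta2 at 502 and 463. The next most abundant of that list, Cdh5, was at 30.3 and 31.9. Markers of fibroblasts, led by Col1a1 at medians of 276 and 262, were also present. Transcripts of red blood cells and pluripotent cells were near 0, with summed medians of at most 0.71 rescaled RPKM in either group.

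Libraries of the same day and replicate number were paired, as the sampling rule sets out. Over the 14047 entries tested, the SD of the log2 difference between the 2 libraries of a pair was 0.16 to 0.30 across the 6 pairs. Between the 2 replicates of the same group and day it was 0.41 to 0.65. The spread between pair members was 1.82 to 10.3 times the variance of counting noise, and between replicates it was 11.9 to 24.1 times that variance. Glia with mutant and with wild-type neurons from one replicate were therefore closer to each other than replicates of one condition were. The main tests on mutant glia alone work within pairs. The fit that adds wild-type glia uses day and replicate number as a block over both glial genotypes.

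No entry passed the threshold for a difference by neuron genotype when the 3 days were averaged. By limma on log2(rescaled RPKM + 1), with the pair as a block and Benjamini-Hochberg adjustment over all entries, 0 of 14047 (0%) passed an adjusted p of 0.05, and the smallest adjusted p was 0.905. At an unadjusted p under 0.05 there were 407 entries (2.9%), of which 242 had a higher and 165 a lower value with mutant neurons. The voom test on reads recovered from the RPKM also called 0, with 354 entries at an unadjusted p under 0.05. With the day 7 replicate 2 pair left out, 1 entry was called by limma, uc009gdm.1 (adjusted p = 0.0159). The direction was higher in 6 of 6 pairs for 200 entries (1.42%) and lower in 6 of 6 for 113 (0.804%). Neither share was above that expected were both signs equally likely in each pair. The averaged entries named below by smallest p were picked for such a sign, which is thus no support for them.

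These intervals bound the differences that the libraries leave room for. The median standard error was 0.07 on the log2 scale. For 13757 entries (97.9%) the 95% interval of the averaged difference lay within 0.5 log2 units of 0, and for 14024 (99.8%) within 1 unit. The estimate was beyond 1 unit for 3 entries. Besides Nefm, described next, these were uc009gdm.1, known only by a transcript name and resting on 0 to 3 reads per library with mutant and 0 in every library with wild-type neurons, and Kif7, a kinesin gene, resting on 0 to 4 reads per library. Differences on this scale understate those of entries with low values, because 1 is added before the logarithm.

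The entry with the smallest p was Nefm, which encodes the medium neurofilament subunit, a structural protein of neuronal axons (mm9, chromosome 14, 68700647 to 68742904, minus strand). With mutant neurons it was at 9.11 and 11.7 rescaled RPKM at day 3, 8.77 and 3.30 at day 7, and 3.66 and 1.97 at day 14. With wild-type neurons it was at 36.9 and 14.5 at day 3, 14.7 and 7.72 at day 7, and 17.1 and 10.7 at day 14. The value with mutant neurons was the lower one in 6 of 6 pairs, although the ranges of the groups overlapped because levels differed between days. The averaged log2 difference was -1.31 (SE 0.22, 95% interval -1.78 to -0.83, unadjusted p = 0.000102, adjusted p = 0.905 by limma). At day 14 alone it was -1.97 (SE 0.30, adjusted p = 0.472 by limma), from pairs at -1.96 and -1.98. The day 3 pairs were unlike each other, at -1.91 and -0.29. With either day 3 pair left out the day 14 difference passed the threshold, with an adjusted p by limma of 0.00223 without replicate 1 and 0.00268 without replicate 2, and with all 6 pairs it did not.

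Nefm also differed by neuron genotype in the RNA of the neurons themselves. In neurons over mutant glia, deposited Nefm values were 1104, 459, 415, 417, 77.5 and 84.1 RPKM in mutant neurons and 7847, 1548, 690, 1065, 140 and 242 RPKM in wild-type neurons, in the order of days and replicates used above. Mutant neurons had the lower value in 6 of 6 pairs here as well. Glial and neuronal libraries were matched by genotypes, day and replicate number, and the labels do not say whether they came from one dish. Glial Nefm amounted to 0.717% to 4.18% of the matched neuronal value with mutant neurons, in deposited RPKM. With wild-type neurons it amounted to 0.648% to 11.1%. Nefl, the light neurofilament subunit and an entry chosen after its values were seen, ran the other way in neurons: 3234, 2267, 1302, 2545, 409 and 512 RPKM in mutant and 2585, 1686, 821, 1226, 245 and 357 RPKM in wild-type neurons. In the glial libraries Nefl was at 14.8, 50.01, 23.7, 6.19, 8.51 and 9.53 rescaled RPKM with mutant neurons and at 17.7, 16.4, 8.21, 7.15, 24.7 and 24.0 with wild-type neurons, so the pairs went in both directions. Its averaged log2 difference was -0.02 (SE 0.36).

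The ratio of Nefm to Nefl within a library needs no rescaling. In glial libraries it was 0.61, 0.23, 0.37, 0.53, 0.43 and 0.21 with mutant neurons and 2.09, 0.89, 1.79, 1.08, 0.69 and 0.45 with wild-type neurons. In the matched neuronal libraries it was 0.34, 0.20, 0.32, 0.16, 0.19 and 0.16 for mutant neurons. For wild-type neurons it was 3.04, 0.92, 0.84, 0.87, 0.57 and 0.68. The ratio was lower with mutant neurons in 6 of 6 pairs of glial libraries and in 6 of 6 pairs of neuronal libraries. The part of neuronal RNA in the glial values of Nefm was not tested.

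**Figure D1:**
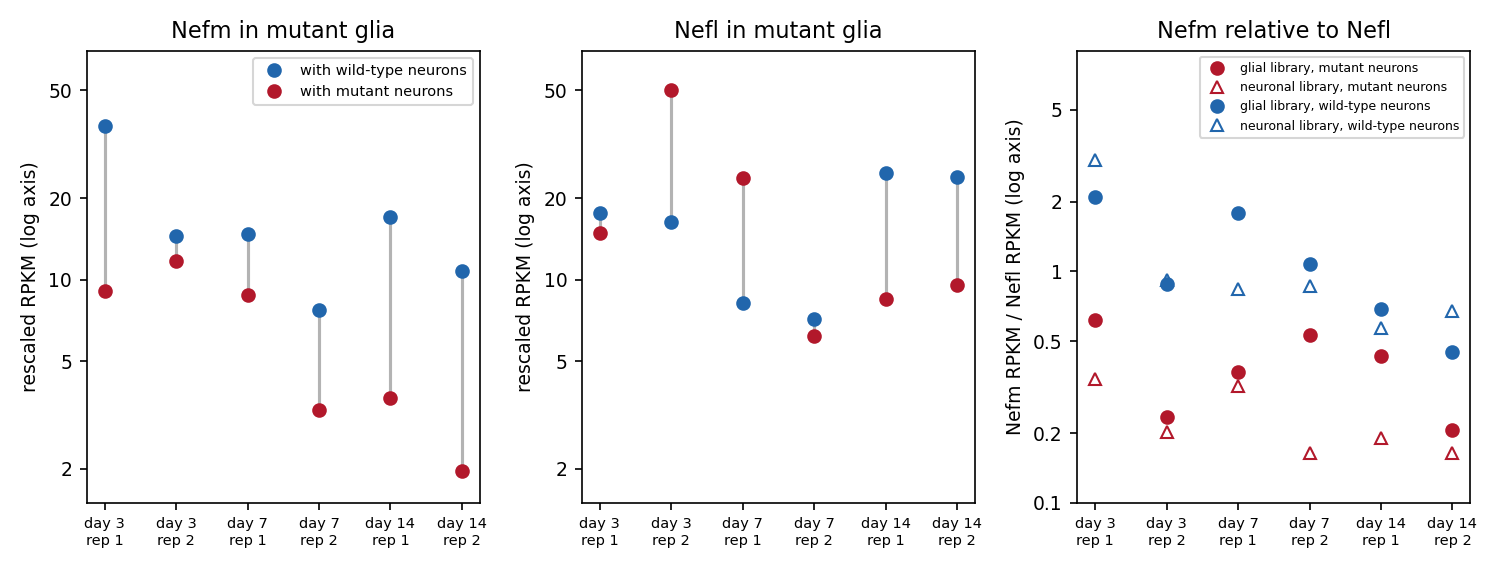
Left and centre: rescaled RPKM (log axis) of Nefm and Nefl in the 12 mutant glial libraries by day and replicate, with a grey line joining the 2 libraries of a pair. Right: Nefm RPKM over Nefl RPKM (log axis) in glial libraries (filled circles) and in neuronal libraries of the same genotypes, day and replicate number (open triangles). Nefm and the ratio are lower with mutant neurons (red) in all 6 pairs, and Nefl is not.

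The other entries of smallest p with the same sign in 6 of 6 pairs had smaller estimates. Ifi35, an interferon-induced gene (mm9, chromosome 11, 101309721 to 101320013), ranged from 15.3 to 43.5 rescaled RPKM with mutant neurons (median 19.6) and from 12.1 to 27.7 with wild-type neurons (median 16.2). The groups overlapped, and the log2 difference was 0.34 (SE 0.08, adjusted p = 0.993 by limma). Aif1, an actin-binding protein of microglia (IBA1), ranged from 8.48 to 99.5 rescaled RPKM with mutant neurons (median 27.6) and from 6.10 to 67.8 with wild-type neurons (median 24.6). Its log2 difference was 0.27 (SE 0.07, adjusted p = 0.993 by limma). The day 3 pairs of Aif1 were both at 0.04, and the days 7 and 14 pairs were at 0.29 to 0.55. Mmd2 was at 0.19, Psmc3ip, a recombination factor, at 0.24, and 6330403K07Rik at 0.20. Qprt, an enzyme of NAD synthesis, was at 0.29, but it rested on 1 to 30 reads per library.

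In the lower direction the differences were as small. Ccl6, a chemokine of myeloid cells, ranged from 7.66 to 38.8 rescaled RPKM with mutant neurons (median 11.1) and from 8.68 to 41.4 with wild-type neurons (median 14.6). The log2 difference was -0.26 (SE 0.06, adjusted p = 0.993 by limma). Mrps36, whose product is found in mitochondria, was at -0.31 (SE 0.07). U2af1l4, a splicing factor gene, and Igflr1, whose entry also carries the name U2af1l4, were at -0.21 and -0.20 with nearly equal values in each pair, so their reads may be shared. Spaca6 labels more than 1 entry, and the entry here was at -0.23. The other entry of that name did not keep 1 sign. In deposited RPKM it was at 6.40 with mutant against 5.68 with wild-type neurons in day 7 replicate 2. In day 14 replicate 1 it was at 6.07 against 4.00, and in the remaining pairs it was lower with mutant neurons.

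**Figure D2:**
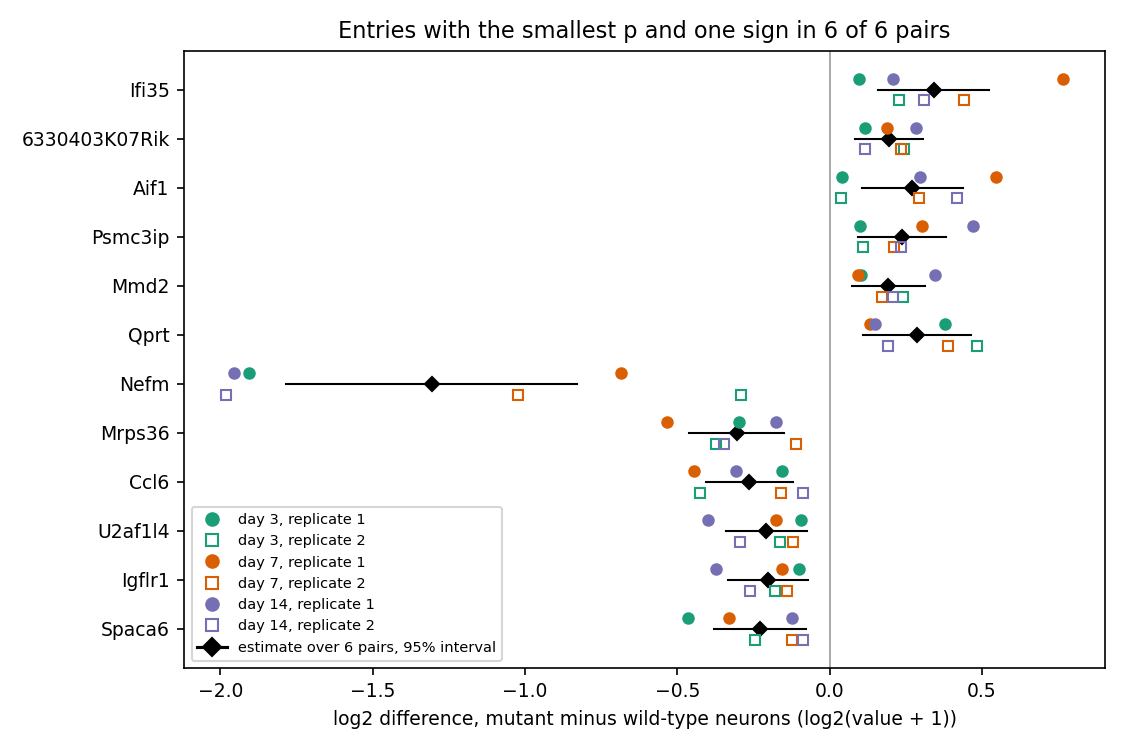
Log2 difference (mutant minus wild-type neurons) within each of the 6 pairs for the 12 entries of smallest p that have one sign in 6 of 6 pairs, with day by colour and replicate by symbol. Black diamonds and lines give the estimate over 6 pairs and its 95% interval. Nefm lies at -1.31, and the other 11 lie between -0.31 and 0.34.

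Lists of genes of known function were read next, none with a member past the threshold in any comparison. The lists were chosen with earlier results of these data known, so counts of their members describe the values and are not tests. Over all entries tested the median averaged difference was 0.01, and 7403 of 14047 were above 0. In the astrocyte marker list 13 of 15 tested members had a value above 0 (median 0.09), and in the list of glutamate and potassium handling 12 of 13 did (median 0.07). The lists share members such as Slc1a2 and Gja1. Slc38a3, a glutamine transporter of astrocytes, ranged from 60.7 to 139 rescaled RPKM with mutant neurons (median 97.2) and from 55.1 to 111 with wild-type neurons (median 86.3). Its difference was 0.16 (SE 0.05, 95% interval 0.04 to 0.28), with 6 of 6 pairs above 0. Kcnj10, the inwardly rectifying potassium channel Kir4.1, was at 0.18 (SE 0.08).

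Among reactive astrocyte genes 12 of 13 had a value above 0 (median 0.07), and 0 of 13 had an unadjusted p under 0.05. Gfap was at 0.14 (SE 0.07), S1pr3, a sphingosine phosphate receptor, at 0.10 (SE 0.06), and Timp1, a metalloproteinase inhibitor, at -0.12 (SE 0.10). The list of astrocyte genes after inflammatory signals had 7 of 11 above 0 (median 0.02). The interferon response list had 11 of 18 above 0 (median 0.01), so Ifi35, which is not on that list, was not part of a one-sided list. Microglial and macrophage markers had 6 of 19 above 0 (median -0.03), and neuron markers 5 of 15 (median -0.04, or 0.01 in the values as deposited). Within the microglial and macrophage list Aif1 was at 0.27. Cd68, a lysosomal glycoprotein of phagocytes, was at -0.19 (SE 0.07) and Trem2, a lipid-sensing receptor, at -0.17 (SE 0.10).

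Inflammatory and trophic genes had medians slightly under 0. Antigen presentation genes had 2 of 10 above 0 (median -0.12), led by Psmb8, an immunoproteasome subunit, at -0.23 (SE 0.10). The chemokine and cytokine list had 6 of 16 above 0 (median -0.05). Tnf was lower in 6 of 6 pairs at -0.16 (SE 0.07), from levels of 1.21 to 4.07 rescaled RPKM with mutant and 1.25 to 4.31 with wild-type neurons. Secreted trophic factors had 6 of 17 above 0 (median -0.07). Bdnf, brain-derived neurotrophic factor, was at -0.14 (SE 0.07) with 2 of 6 pairs above 0. Mertk, a receptor for engulfment, was lower in 6 of 6 pairs at -0.15 (SE 0.05), in a list of synapse-forming astrocyte factors of which 8 of 9 were above 0 (median 0.03).

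Genes mutated in familial ALS had 7 of 18 above 0 (median -0.02), and Ang, the angiogenin gene on that list, was at 0.19 (SE 0.06) with 6 of 6 pairs above 0. Stress responses were near 0 as well. The unfolded protein response list had 6 of 16 above 0 (median -0.03), with Atf4, a transcription factor of that response, at -0.16 (SE 0.07). Chaperones had 6 of 14 above 0 (median -0.01), with Hspd1, the mitochondrial HSP60, at 0.20 (SE 0.07) in 6 of 6 pairs. NRF2 targets of oxidative stress had 7 of 15 above 0 (median 0.00), with Hmox1, the haem oxygenase, at -0.20 (SE 0.10) and Slc7a11, the cystine transporter, at 0.24 (SE 0.12). Lysosomal and autophagy genes had 7 of 18 above 0 (median -0.04), and cell cycle genes 11 of 18 (median 0.04).

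**Figure D3:**
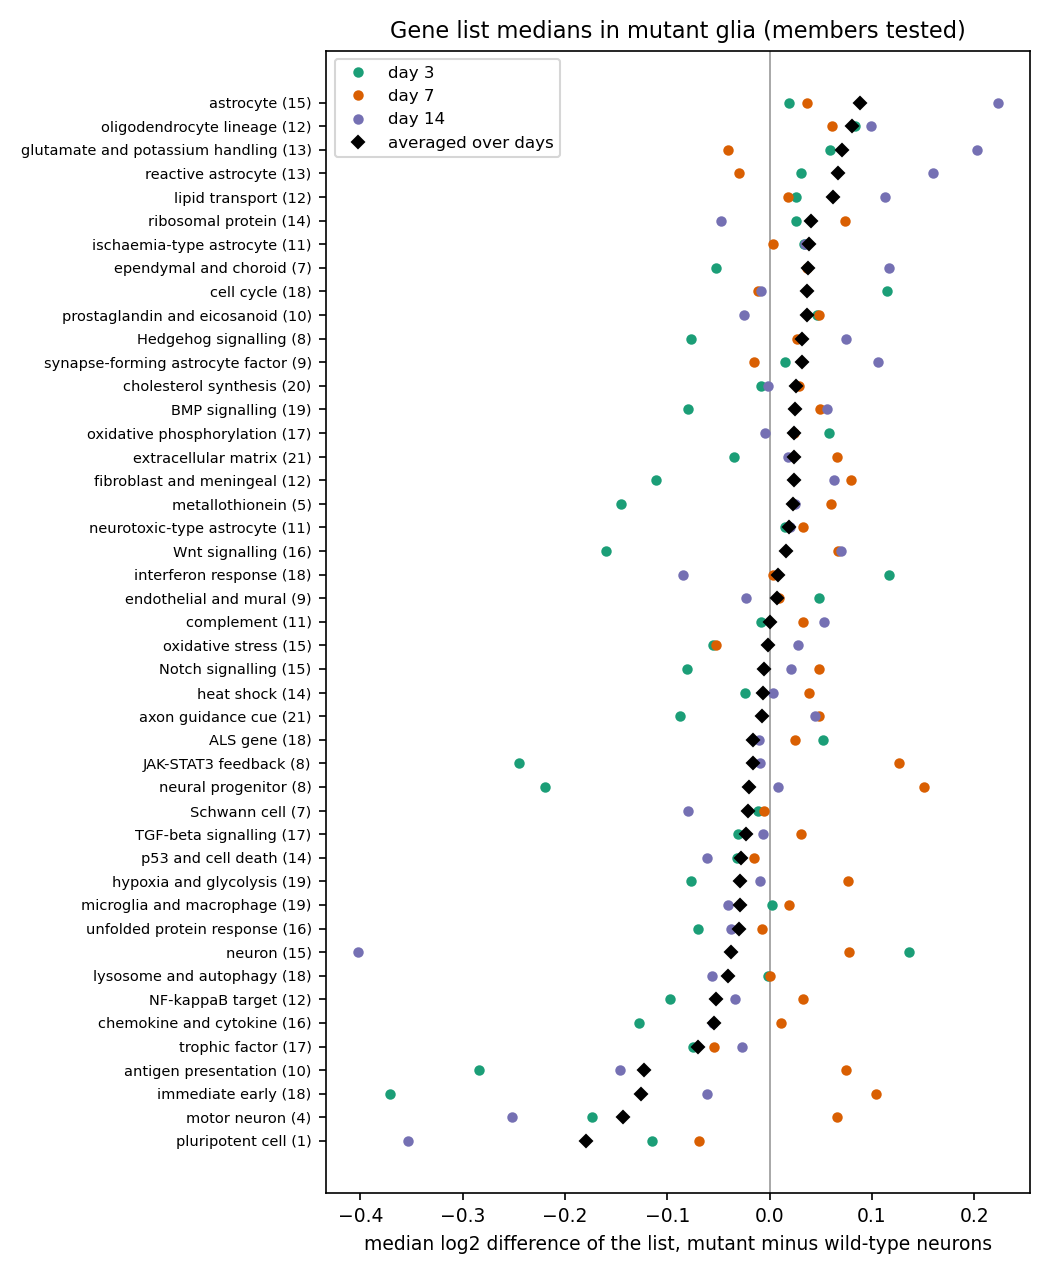
Median log2 difference (mutant minus wild-type neurons) of each gene list with a tested member, at day 3, day 7, day 14 and averaged over days, with the number of members tested in brackets. Averaged medians lie between -0.18 (1 member) and 0.09, and the widest medians of single days are those of neuron markers at day 14 (-0.40) and immediate early genes at day 3 (-0.37).

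Each day was then tested alone, from 2 pairs with a spread shared over the 3 days. No entry passed an adjusted p of 0.05 by limma at day 3, day 7 or day 14 (0% of 14047 each), and the smallest adjusted p values were 0.243, 0.323 and 0.472. At an unadjusted p under 0.05 there were 2125 entries at day 3 (15.1%), 706 at day 7 (5.03%) and 651 at day 14 (4.63%). The 95% interval lay within 1 log2 unit of 0 for 99.0%, 99.2% and 98.8% of entries. It lay within 0.5 units for 72.9%, 84.3% and 81.7%, so single days were less tightly bounded than the average over days.

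At day 14, transcripts of neurons had lower values in mutant glia kept with mutant neurons. Of 15 tested neuron markers, 13 were below 0 with a median log2 difference of -0.40. By limma 8 had an unadjusted p under 0.05, all of them below 0, against 4.63% of all entries in either direction. The list was chosen with earlier results of these data known, and its members share 2 pairs, so these counts do not test it. The medians of the 2 day 14 pairs were -0.36 and -0.40. Besides Nefm, Nefl was at -1.34 (SE 0.42). Snap25, a protein of synaptic vesicle fusion, was at 0.70 and 0.71 rescaled RPKM with mutant and at 1.67 and 3.09 with wild-type neurons (log2 difference -0.95, SE 0.23, adjusted p = 0.965 by limma). Syp, the vesicle protein synaptophysin, was at -0.67 (SE 0.18), Tubb3, neuronal tubulin, at -0.56 (SE 0.20), and Map2, a dendritic microtubule protein, at 0.12 (SE 0.16). Hpca, a neuronal calcium sensor outside the list, was at 0.41 and 0.95 rescaled RPKM with mutant and 1.56 and 3.48 with wild-type neurons (log2 difference -1.03, SE 0.16, adjusted p = 0.472 by limma). Hpca rested on 6 to 126 reads in these 4 libraries.

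Earlier days did not share that pattern of medians. The neuron list was at a median of 0.14 at day 3 and 0.08 at day 7 (0.096 and -0.002 after the GC correction described further on). The 2 day 3 pairs were opposed, at -0.24 and 0.41. For the difference between day 14 and day 3, limma called 0 of 14047 entries (0%), with 813 (5.79%) at an unadjusted p under 0.05 and a smallest adjusted p of 0.847. The entries of smallest p in the lower direction were Hpca (-1.37, SE 0.23), Scg2, a granin of neuronal secretory granules (-1.02, SE 0.19), Cst7, a cystatin (-0.79, SE 0.15), and uc009jkd.1 (-0.68, SE 0.14). In the higher direction they were Nkx6-2, a homeobox gene of oligodendrocytes and ventral neural tube (0.81, SE 0.14), Pura (0.67, SE 0.13), Fbl, the nucleolar methyltransferase fibrillarin (0.87, SE 0.17), and uc009upi.1 (1.29, SE 0.25).

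The summed level of the neuron markers in the glial libraries gives these values a scale. In rescaled RPKM it was 372, 424, 397, 239, 252 and 199 with mutant and 439, 337, 349, 241, 288 and 255 with wild-type neurons. As a share of the same sum in the matched neuronal library, it was 7.04%, 5.61%, 7.20%, 2.97%, 17.3% and 10.9% with mutant neurons. With wild-type neurons the share was 3.56%, 3.71%, 7.87%, 3.797%, 21.8% and 14.2%, all in deposited RPKM. Scaled to the reads on genes instead, the day 3 replicate 1 shares were 4.63% and 3.22%. At day 14 both the sum and the share were lower with mutant neurons in both pairs. All 18 listed markers were above 0 in at least 1 of the 12 libraries. Whether these differences come from neuronal RNA carried into glial samples or from the glia was not tested.

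**Figure D4:**
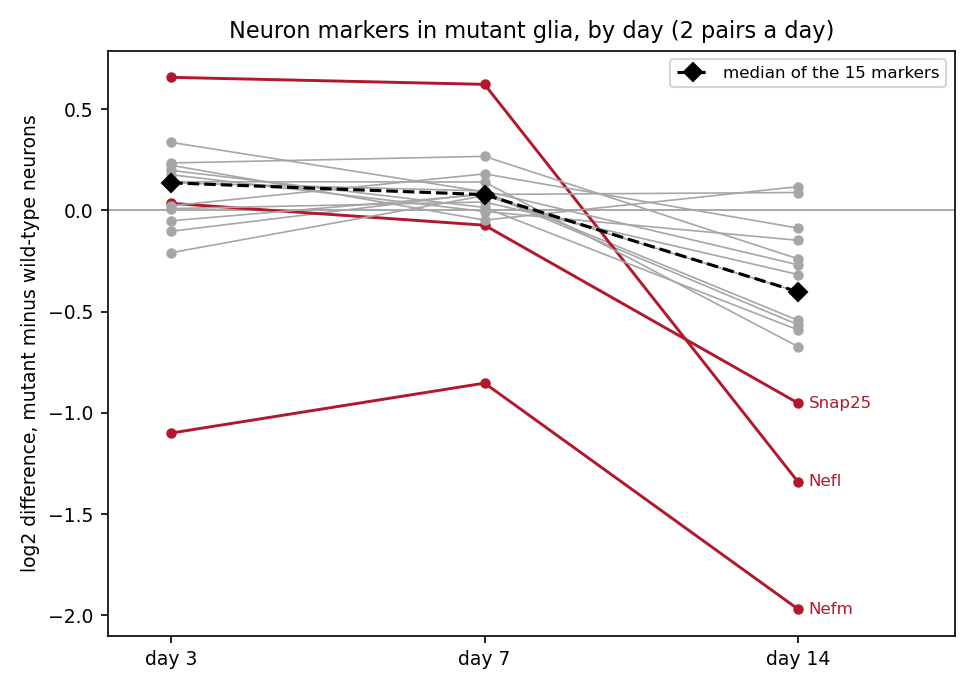
Log2 difference (mutant minus wild-type neurons, fit by day from 2 pairs each) of the 15 tested neuron markers at days 3, 7 and 14, with 3 markers in red and the list median as a dashed black line. The median goes from 0.14 at day 3 to -0.40 at day 14, and Nefm is below 0 on every day.

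Astrocyte genes had the opposite direction at day 14. There 14 of 15 astrocyte markers were above 0 with a median of 0.22, 5 of them at an unadjusted p under 0.05 by limma. Of 13 genes of glutamate and potassium handling, 12 were above 0 with a median of 0.20, 4 of them at such a p. Over all entries tested, 7166 of 14047 were above 0, and 4.63% had such a p in either direction. The 2 lists share members such as Slc1a2 and Gja1 and rest on the same 2 pairs, so these counts do not test them. S100b, a calcium-binding protein of astrocytes, was at 11.5 and 2.13 rescaled RPKM with mutant and at 5.16 and 1.29 with wild-type neurons (log2 difference 0.73). Gfap was at 217 and 80.7 with mutant and 185 and 59.2 with wild-type neurons (0.34). Slc7a11, the cystine and glutamate exchanger, was at 13.1 and 5.57 with mutant and 7.80 and 3.41 with wild-type neurons (0.63, SE 0.11, adjusted p = 0.671 by limma). With GC content taken out, astrocyte markers were at a median of 0.21 and neuron markers at -0.38. The other entries of smallest p at day 14 are known only by transcript names, uc008wbo.1 at 0.96 (SE 0.14), uc009igo.1 at 0.79 (SE 0.14) and uc008ajj.1 at -0.96 (SE 0.13).

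At day 3, immediate early genes, which are transcribed within minutes of a stimulus, had lower values with mutant neurons. In wild-type glia the direction was the same as an average over days, given further on. Wild-type glia with mutant neurons have only 1 library at day 3, so that average is not a day 3 value. Of 18 members 17 were below 0 (median -0.37), and 11 had an unadjusted p under 0.05, on a day when 15.1% of all entries did. The median was -0.16 in the replicate 1 pair and -0.57 in the replicate 2 pair. Fosl1, a subunit of the AP-1 factor, was at 4.46 and 4.67 rescaled RPKM with mutant and 5.02 and 13.4 with wild-type neurons (-0.74), so most of its difference lay in replicate 2. Egr1, a zinc finger factor, was at 29.5 and 22.6 with mutant and 36.1 and 31.3 with wild-type neurons (-0.37). At day 7 the list median was 0.10 with 14 of 18 above 0 (0.02 after the GC correction described next), and at day 14 it was -0.06. Among the entries of smallest p at day 3 were Furin, a proprotein convertase (-0.55, SE 0.08), an entry named Ppard, a name that labels more than 1 entry (-0.91, SE 0.13), and uc007xoe.1 (-0.93, SE 0.15). In the other direction were Elovl7, a fatty acid elongase (0.60, SE 0.11), uc008uig.1 (0.63, SE 0.12) and uc009gdm.1 (2.05, SE 0.29). The value of uc009gdm.1 rests on 1 and 3 reads against 0 and depends on the constant added before the logarithm. With the day 3 replicate 1 pair left out, limma called 94 entries at day 3 (9 higher, 85 lower), which rest on the replicate 2 pair alone. With replicate 2 left out it called 4, Dpysl2, Nefm, uc007xod.1 and Nfia.

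Within-pair differences moved with the GC content of the transcripts, which 12246 of the 14047 entries (87.2%) could be given from GENCODE transcripts of the same name. In the day 3 replicate 2 pair the median log2 difference was 0.24 in the lowest of 5 groups of entries of equal size ordered by GC content (32.62% to 44.55%) and -0.29 in the highest (56.07% to 72.83%). In the replicate 1 pair of that day the same medians were 0.06 and -0.08. The day 7 pairs had the opposite slope, with medians of -0.09 in the lowest group of both pairs and 0.11 and 0.12 in the highest. At day 14 the medians were 0.09 and -0.09 in replicate 1 and 0.01 and -0.04 in replicate 2. With GC content taken out of each library, the day 3 entries at an unadjusted p under 0.05 numbered 985 of 12246, against 1968 of the same entries before. Immediate early genes had a median GC content of 55.2%, against 50.4% over all entries, and after the correction 15 of 18 were below 0 at day 3 (median -0.33). Antigen presentation genes, at a median GC content of 56.5%, went from a day 3 median of -0.28 to -0.15.

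**Figure D5:**
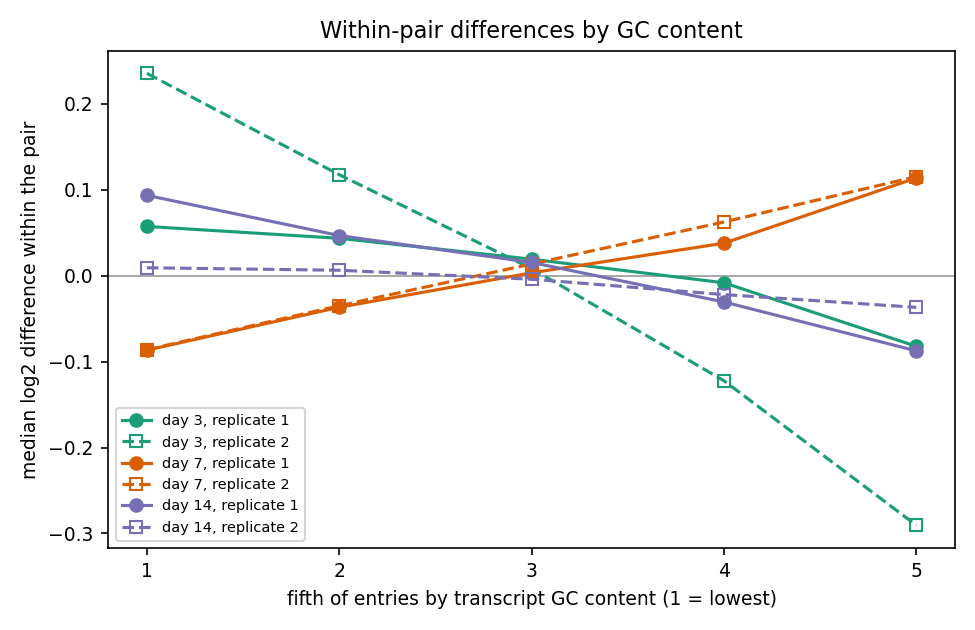
Median log2 difference within each of the 6 pairs (mutant minus wild-type neurons) in 5 groups of equal size of 12246 entries ordered by transcript GC content, with day by colour and replicate by symbol. The day 3 replicate 2 pair runs from 0.24 to -0.29, and both day 7 pairs slope the other way.

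The scaling of the day 3 libraries also bears on that day. In the values as deposited, the median of all entries was shifted to 0.14 at day 3, and 2739 entries were higher and 217 lower at an unadjusted p under 0.05. After rescaling these numbers were 913 and 1212. Immediate early genes had a median of -0.24 in the values as deposited, where 15 of 18 were below 0 but only 3 had an unadjusted p under 0.05 (16.7%, against 20.6% of all entries). The same values gave 16 tested neuron markers at day 14 a median of -0.35.

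At day 7, the entries of smallest p in the higher direction were uc008axx.1 (1.57, SE 0.19), uc007swr.1 (0.51, SE 0.08) and an entry that carries the names Epo and Gnb2 (0.82, SE 0.13), so its reads may come from either gene. For uc008axx.1, levels were 295 and 19.9 rescaled RPKM with mutant and 75.2 and 8.28 with wild-type neurons at day 7, and its day 3 pairs were at -0.45 and -1.03. In the lower direction were Igsf6, an immunoglobulin superfamily gene of myeloid cells (-0.48, SE 0.10), Gstm3, a glutathione transferase (-0.52, SE 0.14), and an entry named Cyb5r4, a name that labels more than 1 entry (-0.54, SE 0.13). None passed the threshold, and the GC slope above moves with the day 7 differences.

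Finally, the response of mutant glia was set against that of wild-type glia, for which 11 libraries and 5 complete pairs were at hand and no library is shared. One fit of 23 glial libraries took day and replicate number as a block over both glial genotypes, so it did not work within pairs. Its median SE for mutant glia was 0.098, against 0.074 in the paired fit. By limma 133 of its 14279 entries were at an unadjusted p under 0.05 in mutant glia, against 407 of 14047. In wild-type glia 0 of 14279 entries (0%) passed the threshold for neuron genotype, with 257 (1.8%) at an unadjusted p under 0.05. The difference of the 2 responses passed the threshold for 0 entries (0%), with 73 (0.511%) at an unadjusted p under 0.05 and a smallest adjusted p of 1 by limma. For 97.6% of entries the 95% interval of that difference lay within 1 log2 unit of 0, and for 74.6% within 0.5. Nefm was at -1.24 in wild-type glia (SE 0.28), lower in 5 of 5 pairs. Its difference between mutant and wild-type glia was -0.06 (95% interval -0.88 to 0.75). The labels do not say whether the neuron preparations were shared between the glial genotypes.

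Other members of interest had wide intervals in that test. For Ifi35 the wild-type glia gave -0.12 (SE 0.19) and the difference was 0.46 (95% interval -0.10 to 1.01). For Aif1 the wild-type glia gave -0.02 (SE 0.18) and the difference was 0.29 (95% interval -0.22 to 0.80). The neuron list had a median of -0.19 and 0.07 in the day 14 pairs of wild-type glia, against -0.37 and -0.36 for the same 16 members in mutant glia. Averaged over days, 17 of 18 immediate early genes were below 0 in wild-type glia (median -0.23), and 15 of 18 in mutant glia in the same fit (median -0.13). The entries of smallest p were uc009gdm.1 (1.55, SE 0.41), uc007why.1 (0.46, SE 0.14), Immp2l, a mitochondrial peptidase (0.35, SE 0.12), and Fkbpl (0.27, SE 0.10) in the higher direction. In the lower direction they were Rffl, a ubiquitin ligase (-0.37, SE 0.11), uc008vaw.1 (-1.21, SE 0.38), Mrps36 (-0.36, SE 0.12) and uc008vwe.1 (-0.57, SE 0.21). None had an adjusted p under 1 by limma. The value of uc009gdm.1 rests on the few reads given above, and it was called in this test when the day 7 replicate 2 pair was left out (adjusted p = 0.0296 by limma).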

How the data were processed

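The authors deposited 1 table of RPKM values for the culture libraries, aligned with Bowtie to mm9 per the submitters' processing notes. How reads were counted per gene is not stated there. Of 27389 entries, 127 held no value. The RPKM values returned whole reads (within 0.02 reads) for 100% of entries above 0, and these reads gave the depths and the voom test. RPKM values were rescaled by median-of-ratios factors, and entries at 1 or more in at least 2 libraries were kept. Then log2(value + 1) was tested with limma 3.58.1 in R 4.3.3 (trended variance, pair as a block, Benjamini-Hochberg threshold 0.05). In the fit with wild-type glia the block was day and replicate number over both glial genotypes. Libraries were paired by day and replicate number because the sampling rule sets this out. Deviations from group means correlated between the libraries of a pair at 0.673, 0.827 and 0.892 (days 3, 7 and 14). Genes were named by p and sign: 6 per direction with one sign in 6 of 6 pairs, 3 per day and direction, 4 per difference test, up to 3 per list. The deposited spinal cord table gave mm9 positions only. Members and lists were chosen with earlier results of these data known. Scripts were tested on simulated data. Alternatives were other scalings, pseudocounts, filters, weights, no block, and leaving out each pair; a GC correction (spline with 4 degrees of freedom) was added after seeing the data.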

Additional observations from a re-analysis of the deposited data

Results flagged for a closer look

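Of 39 sets of 6 values (the 2 groups and the within-pair differences of the named averaged entries and Sod1), 4 held a value far from the others, where chance flags about 1 in 20. Sod1 with wild-type neurons was at 1258 rescaled RPKM in day 3 replicate 1, against 226 to 488 in the other libraries. Nefm with wild-type neurons was at 36.9 in the same library, against 7.72 to 17.1. 6330403K07Rik was at 88.7 with mutant neurons in day 14 replicate 1, against 30.1 to 43.7, and at 72.8 with wild-type neurons in that replicate, against 25.3 to 40.3. The library with Sod1 at 1258 and Nefm at 36.9 is one of the 2 with a rescaling factor above 1.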

How the results depend on the processing

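Averaged over days, 0 entries were called under every alternative except without day 7 replicate 2, where uc009gdm.1 alone was called, so the leave-one-out range was 0 to 1; array weights gave a smallest adjusted p of 0.0865 by limma. The difference from wild-type glia had the same range, with uc009gdm.1 as the 1 call. The difference between day 14 and day 3 ranged from 0 to 1. By day, leaving out pairs gave 0 to 94 calls at day 3, 0 to 1 at day 7 and 0 to 1 at day 14, 0 to 95 in all; the 94 (9 higher, 85 lower) came without day 3 replicate 1 and rest on 1 pair, assumed to vary like the others, and without day 3 replicate 2 there were 4. With no filter on low values day 7 had 1 call. With no replicate block there were 0 calls at every comparison and 24 entries at an unadjusted p under 0.05 in the averaged one, against 407 with the block. With the GC correction and the replicate block there were 0 calls. None of the entries named by smallest p changed sign under the alternatives run (list members were not rerun one by one). The lowest depth, 3.13 M reads, limits entries of few reads most.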
